A study of Mus musculus with 12 samples.

Results

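The genes described here are 10 control genes of mTORC1, a protein kinase complex that couples nutrients, growth factors and oxygen to protein synthesis. They are Ddit4, its relative Ddit4l, Tsc1, Tsc2, Rheb, Rragd, Deptor, Eif4ebp1, Eif4ebp2 and Rps6kb1, and they were chosen by gene name from the raw count table. All 10 names were found among its 54446 genes. Of these, 9 had enough counts to be tested, with 14724 genes tested in all, and Ddit4l did not.

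DDIT4, also called REDD1, is a stress protein whose gene is a known target of the hypoxia-inducible factors, and it lowers mTORC1 activity through the TSC complex. The TSC1 and TSC2 proteins form a complex that keeps the small GTPase RHEB inactive, and active RHEB at the lysosome switches mTORC1 on. RAG GTPases such as RRAGD bring mTORC1 to the lysosome when amino acids are present, DEPTOR binds and restrains the complex, and the translation repressors 4E-BP1 and 4E-BP2 (Eif4ebp1 and Eif4ebp2) and the kinase S6K1 (Rps6kb1) are substrates through which it acts on protein synthesis. In fibroblasts, as in other cells, low oxygen is known to lower mTORC1 activity. The transcripts measured here do not show the activity or phosphorylation of any of these proteins.

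RNA was sequenced from NIH3T3, a mouse embryonic fibroblast line (wild type), and from dN-VEGF cells, NIH3T3 cells that lack the coding sequence of N-VEGF, the amino-terminal extension made from the long form of VEGF-A. Each line was kept in normoxia or in hypoxia (below 0.2% oxygen) for 16 h, which gave 4 groups of 3 samples. The dN-VEGF cells were made with Cas9, a pair of guides and reporter cassettes with drug resistance, from single clones whose cassettes were afterwards cut out with VCre, followed by sorting for cells without the fluorescent reporter. The sources used here do not say which clone or clones were sequenced, so a difference between the lines cannot be told apart from a difference between clones. The gene-level count of Vegfa does not check the deletion, since the rest of the gene is kept. Nothing in the labels says that the 3 samples of a group were separate cultures, so p-values measure the spread between these samples, which may be technical.

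Total counts per sample ran from 30519052 to 43056690, and 3 counts, the limit that a count of 0 allows, corresponded to 0.0578 to 0.103 CPM, the count scaled to library size with TMM factors. The 10 fibroblast markers together reached 17340 CPM at the lowest, and the summed epithelial (5 genes), endothelial (4), immune (4) and muscle (3) markers reached at most 10.4, 25.1, 6.68 and 5.80 CPM. The endothelial sum was 20.3 to 25.1 CPM in dN-VEGF hypoxia, nearly all of it Cdh5, and 1.81 to 8.05 CPM in the other groups, and the immune sum was largely Cd68. The epithelial sum was 8.72 to 10.4 CPM in wild-type hypoxia and 2.27 to 3.90 CPM in the other groups, and the fibroblast sum was 41780 to 43910 CPM in dN-VEGF hypoxia and at most 29620 CPM elsewhere. Kdr, Ptprc, Cd3e and Myog had at most 2 counts in any sample, and Epcam and Myod1 none. The part of these markers in the results was not tested. The kit does not mark strand and no strand setting is stated, so reads of genes that overlap on opposite strands cannot be told apart. This concerns Tsc2, which shares 7.2% of its exon bases with Pkd1, Deptor, which shares 3.41% with Gm9920, and Rps6kb1, which shares 1.79% with Rnft1. In normoxia, replicate 2 stood apart in both lines. Its log2 CPM correlated with the other replicates at 0.956 to 0.957 in wild-type and 0.986 in dN-VEGF cells, where replicates 1 and 3 correlated at 0.996. Values without these samples are given beside member results whose call they changed, and for other named genes after hypoxia where the call or the direction changed.

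The promoter windows of the 4 members that were called in any comparison and for which a window was held, Ddit4, Tsc2, Eif4ebp2 and Rps6kb1, are shown here, so that the letters bound by hypoxia-inducible factors in other genes can be looked for. They come from RefSeq on build GRCm38.p6 and run from 250 bases before to 50 bases after the start of the gene. Of the 10 members 8 had a window, and Deptor and Eif4ebp1 had none. Capitals mark ACGTG or GCGTG, the core letters of the element, on either strand, so that the reverse match reads CACGT or CACGC. The window of Ddit4 is chr10:59951721-59952020 on the minus strand, that of Tsc2 is chr17:24632578-24632877 on the minus strand, that of Eif4ebp2 is chr10:61452620-61452919 on the minus strand and that of Rps6kb1 is chr11:86544758-86545057 on the minus strand.
Ddit4: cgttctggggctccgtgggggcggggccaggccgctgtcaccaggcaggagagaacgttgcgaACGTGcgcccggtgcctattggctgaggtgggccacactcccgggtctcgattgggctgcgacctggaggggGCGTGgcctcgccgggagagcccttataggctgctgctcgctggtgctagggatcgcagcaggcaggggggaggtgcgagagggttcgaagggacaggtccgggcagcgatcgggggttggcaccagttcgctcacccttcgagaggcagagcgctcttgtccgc
Tsc2: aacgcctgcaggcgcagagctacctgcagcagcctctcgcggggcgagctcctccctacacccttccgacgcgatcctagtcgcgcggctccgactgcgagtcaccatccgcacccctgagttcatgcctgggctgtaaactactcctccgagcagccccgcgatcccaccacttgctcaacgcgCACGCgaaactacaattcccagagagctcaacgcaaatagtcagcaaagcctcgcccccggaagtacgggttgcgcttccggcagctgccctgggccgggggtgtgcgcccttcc
Eif4ebp2: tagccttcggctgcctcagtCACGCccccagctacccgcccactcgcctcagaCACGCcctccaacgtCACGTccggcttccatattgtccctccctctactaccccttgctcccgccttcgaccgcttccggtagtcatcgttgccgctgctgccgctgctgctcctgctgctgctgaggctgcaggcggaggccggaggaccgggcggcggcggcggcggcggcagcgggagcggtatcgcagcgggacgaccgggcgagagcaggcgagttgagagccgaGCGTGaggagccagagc
Rps6kb1: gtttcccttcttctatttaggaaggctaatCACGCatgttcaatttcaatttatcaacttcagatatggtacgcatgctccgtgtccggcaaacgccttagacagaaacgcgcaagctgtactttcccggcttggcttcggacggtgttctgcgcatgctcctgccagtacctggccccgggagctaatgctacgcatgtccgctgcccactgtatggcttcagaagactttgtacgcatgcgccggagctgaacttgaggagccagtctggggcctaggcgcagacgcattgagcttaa

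In the Ddit4 window ACGTG began 187 bases and GCGTG 115 bases before the start, both on the strand of the gene. The window of Eif4ebp2, a gene not called after hypoxia in either line, held 4 core matches, and those of Tsc2 and Rps6kb1 held 1 each, which began 65 and 220 bases before the start. A core match was found in 7 of the 8 windows, the exception being Rragd. Over all 32851 RefSeq windows ACGTG was found in 19.6%, GCGTG in 32.4% and either in 43.8%. The E-box CACGTG, which contains ACGTG on both strands, was present in 7.15% of all windows and, among the members, in that of Rheb, 96 bases before its start. The windows of Ddit4 and Eif4ebp2 were 69% and 70.0% G and C, and that of Rps6kb1 53.3%. A match of these letters is a description and not a binding site.

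The members differed widely in level. On the scale of CPM per kilobase of exon, averaged over the 12 samples, the order was Eif4ebp1 (156), Ddit4 (103), Eif4ebp2 (28.1), Tsc2 (13.4), Rheb (5.84), Rps6kb1 (3.68), Tsc1 (2.88), Deptor (0.465), Rragd (0.0517) and Ddit4l (0.000876). Tsc1 stood above Rps6kb1 in dN-VEGF hypoxia, at 2.56 ± 0.151 and 2.49 ± 0.0788 (SD, n = 3), with overlapping samples, against the mean order. In wild-type normoxia Ddit4 stood at 49.0 ± 28.2 (SD, n = 3) and Eif4ebp1 at 63.8 ± 10.3 on this scale, with overlapping samples. Rps6kb1 and Tsc1 also lay close, at 3.07 ± 0.393 and 3.02 ± 0.0901 (SD, n = 3) in wild-type hypoxia, and overlapped there. Ddit4l and Rragd lay at the bottom, the first with a single count in 1 of 12 samples.

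**Figure D1:**
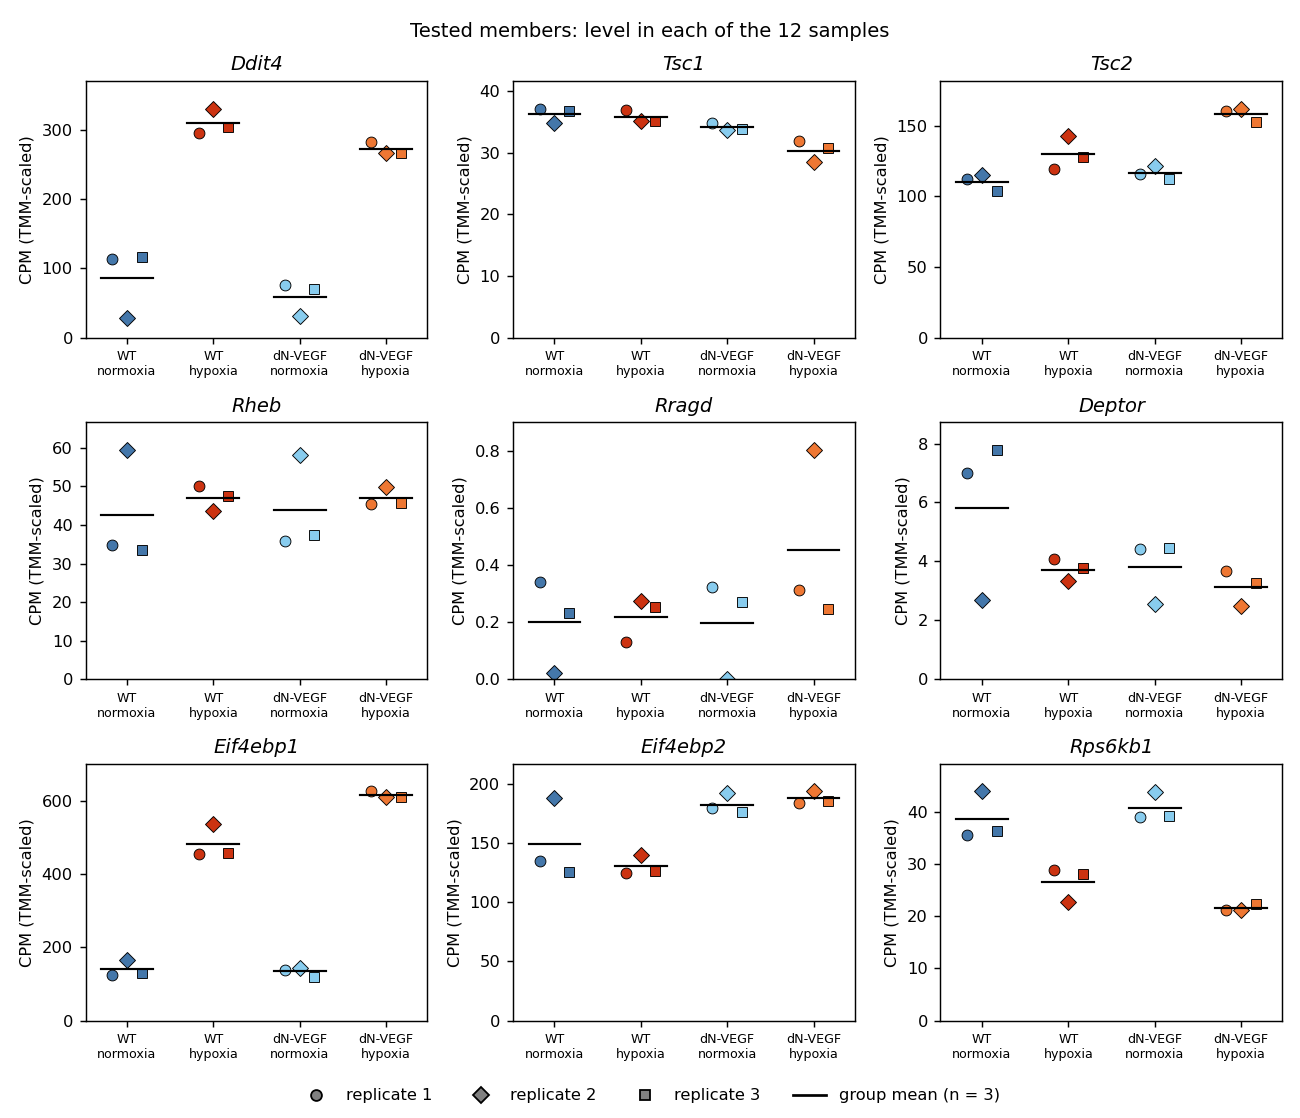
Each panel plots 1 tested member, with TMM-scaled CPM on a linear axis from 0 and the 4 groups along the bottom. Points are samples, the shape gives the replicate number and the bar is the mean of 3 samples. Ddit4 and Eif4ebp1 were higher and Rps6kb1 lower in every hypoxia sample than in every normoxia sample of the same line, and replicate 2 of normoxia lay away from the other replicates for Ddit4, Rheb and Deptor.

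Hypoxia was first compared with normoxia in wild-type cells, which asks how the control genes respond to 16 h of low oxygen when N-VEGF is present. Transcripts of the inhibitor Ddit4 and of the translation repressor Eif4ebp1 rose, by 3.60-fold and 3.45-fold, and those of the kinase Rps6kb1 fell to 0.688 of the normoxia level. No change was called for Tsc1, Tsc2, Rheb, Rragd, Deptor or Eif4ebp2. Thus 2 of 9 tested members rose and 1 fell (edgeR quasi-likelihood test, Benjamini-Hochberg adjusted p below 0.05 over all genes), where 18.2% of all tested genes were called higher and 18.3% lower. At an added threshold of 2-fold the members called were Ddit4 and Eif4ebp1, 2 of 9, where 15.7% of all genes were called. When samples were scaled by total counts in place of TMM, 2 members rose and 2 fell, the added one being Eif4ebp2, where 12.8% of all genes rose and 32.7% fell.

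Ddit4 measured 113, 28.8 and 116 CPM in the 3 wild-type normoxia samples and 295, 330.2 and 303 CPM in the 3 hypoxia samples. The groups did not overlap, and replicate 2 of normoxia was the lowest of all. Its log2 fold change was 1.85 ± 0.449 (SE) with an adjusted p of 0.00778 (edgeR). Without replicate 2 of normoxia in both lines, Ddit4 had a log2 fold change of 1.44, or 2.71-fold, with a 95% interval from 1.31 to 1.57 and an adjusted p of 5.86e-14. The size of the rise therefore depended on that sample, and its direction and call did not.

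Among the TSC and Rheb genes, the differences were small. Tsc2, the GTPase-activating subunit, measured 112.5, 115 and 104 CPM in normoxia and 119.6, 143 and 128 CPM in hypoxia. All hypoxia samples lay above all normoxia samples, but the log2 fold change of 0.24 had an adjusted p of 0.0561 (edgeR), and it was called in 6 of 20 alternatives, among them DESeq2 and the fit without both normoxia samples numbered 2 (0.27, adjusted p 0.00146), while scaling by total counts brought it to 0.01 with 0.92. Tsc1, the scaffold subunit, measured 34.8 to 37.1 CPM in normoxia and 35.1 to 37.0 CPM in hypoxia, with a log2 fold change of -0.02 (95% interval -0.20 to 0.16). Rheb measured 34.8, 59.5 and 33.6 CPM in normoxia and 50.02, 43.7 and 47.5 CPM in hypoxia. Here replicate 2 of normoxia was the highest of the group while it was the lowest for Ddit4, and the log2 fold change of Rheb was 0.14 (95% interval -0.36 to 0.65). Without replicate 2 of normoxia in both lines it was 0.47 with an adjusted p of 4.83e-06 (edgeR), and with total counts -0.05.

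Deptor, which binds mTOR, measured 7.01, 2.69 and 7.78 CPM in normoxia and 4.08, 3.32 and 3.77 CPM in hypoxia. Replicate 2 of normoxia lay below all 3 hypoxia samples and the other normoxia samples above them, and the log2 fold change was -0.65 (95% interval -1.42 to 0.13, adjusted p 0.174, edgeR). It was -0.98 with 7.09e-07 without replicate 2 of normoxia in both lines. Rragd, a RAG GTPase, had 1 to 15 counts per sample in these 6 samples, and its interval ran from -1.91 to 2.14, so that a change of this gene was not detectable at this depth. Ddit4l had no count in wild-type cells, which allows up to 0.103 CPM in the shallowest sample.

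Of the substrates, Eif4ebp1 measured 125, 166 and 129 CPM in normoxia and 454, 537 and 458 CPM in hypoxia. Every hypoxia sample exceeded every normoxia sample, and the log2 fold change was 1.79 ± 0.128 (SE) with an adjusted p of 1.82e-06 (edgeR). Its relative Eif4ebp2 measured 134, 188 and 125 CPM in normoxia and 125, 139.5 and 126 CPM in hypoxia, with a log2 fold change of -0.20 (95% interval -0.50 to 0.10). Per kilobase of exon, the level of Eif4ebp1 was 2.33 to 2.71 times that of Eif4ebp2 in the wild-type normoxia samples and 9.57 to 10.1 times in the hypoxia samples. Rps6kb1 measured 35.6, 43.9 and 36.3 CPM in normoxia and 28.9, 22.7 and 28.2 CPM in hypoxia. The groups did not overlap, and it fell by 0.54 ± 0.119 (SE) on the log2 scale with an adjusted p of 0.00468 (edgeR).

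The same comparison in dN-VEGF cells gave calls for Ddit4, Eif4ebp1 and Rps6kb1 as well, and also for Tsc2. Ddit4 rose 4.59-fold, Eif4ebp1 4.58-fold and Tsc2 1.36-fold, and Rps6kb1 fell to 0.530 of the normoxia level. These were 3 of 9 tested members higher and 1 lower, where 26.9% of all tested genes were called higher and 26.4% lower in this line. With the 2-fold threshold 2 of 9 remained, Ddit4 and Eif4ebp1, where 27.2% of all genes were called. With total counts as the scale, 2 members rose and 3 fell, where 15.3% of all genes rose and 44.5% fell.

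In dN-VEGF cells Ddit4 measured 75.8, 31.4 and 69.9 CPM in normoxia and 282, 266 and 266 CPM in hypoxia. The groups lay far apart, and replicate 2 was again the lowest of the normoxia samples. The log2 fold change was 2.2 ± 0.455 (SE) with an adjusted p of 0.00191 (edgeR), and 1.89 (95% interval 1.75 to 2.02) without replicate 2 of normoxia in both lines. Tsc2 measured 116, 121 and 112.0 CPM in normoxia and 160.2, 162 and 153 CPM in hypoxia, with no overlap. Its log2 fold change of 0.45 ± 0.0884 (SE) had an adjusted p of 0.00149 (edgeR), and with total counts it was 0.04 with 0.677.

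Tsc1 measured 34.8, 33.7 and 33.9 CPM in dN-VEGF normoxia and 31.9, 28.4 and 30.7 CPM in hypoxia. All hypoxia samples lay below the normoxia samples, with a log2 fold change of -0.17 (95% interval -0.35 to 0.01, adjusted p 0.0971, edgeR). It was called in 5 of 20 alternatives, among them the fit without both normoxia samples numbered 2 (-0.18, adjusted p 0.0146). Per kilobase, Tsc2 was 4.07 to 4.43 times Tsc1 in dN-VEGF normoxia and 6.13 to 7.03 times in hypoxia, against 3.47 to 4.06 and 3.98 to 5.0 times in wild-type cells. Rheb measured 35.8, 58.1 and 37.5 CPM in normoxia and 45.6, 49.8 and 45.6 CPM in hypoxia, with replicate 2 of normoxia high as in wild-type cells. Its log2 fold change was 0.10 (95% interval -0.40 to 0.61) with all samples and 0.35 with an adjusted p of 0.00011 (edgeR) without replicate 2 of normoxia in both lines. Deptor measured 4.44, 2.56 and 4.46 CPM in normoxia and 3.67, 2.48 and 3.25 CPM in hypoxia, and its log2 fold change was -0.29 (95% interval -1.07 to 0.50). Without both normoxia samples numbered 2 it was -0.51 (95% interval -0.80 to -0.22) with an adjusted p of 0.00298 (edgeR). Rragd had 0 to 25 counts per sample, with a log2 fold change of 1.17 (95% interval -0.72 to 3.06), and Ddit4l had 1 count in 1 hypoxia sample.

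Eif4ebp1 measured 139, 144 and 120.0 CPM in dN-VEGF normoxia and 626, 609.8 and 612 CPM in hypoxia. The log2 fold change was 2.19 ± 0.129 (SE) with an adjusted p of 2.27e-07 (edgeR). Eif4ebp2 stayed within a narrow range, at 179, 192 and 176 CPM in normoxia and 184, 193 and 185 CPM in hypoxia, with a log2 fold change of 0.04 (95% interval -0.26 to 0.34). Total counts gave -0.36 with an adjusted p of 0.00566 (edgeR), while the median of all genes in this comparison lay at -0.41 on that scale. Per kilobase, Eif4ebp1 was 1.79 to 2.05 times Eif4ebp2 in dN-VEGF normoxia and 8.30 to 8.97 times in hypoxia. Rps6kb1 measured 38.9, 43.9 and 39.3 CPM in normoxia and 21.2, 21.1 and 22.4 CPM in hypoxia, and fell by 0.92 ± 0.12 (SE) on the log2 scale with an adjusted p of 8.63e-05 (edgeR).

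**Figure D2:**
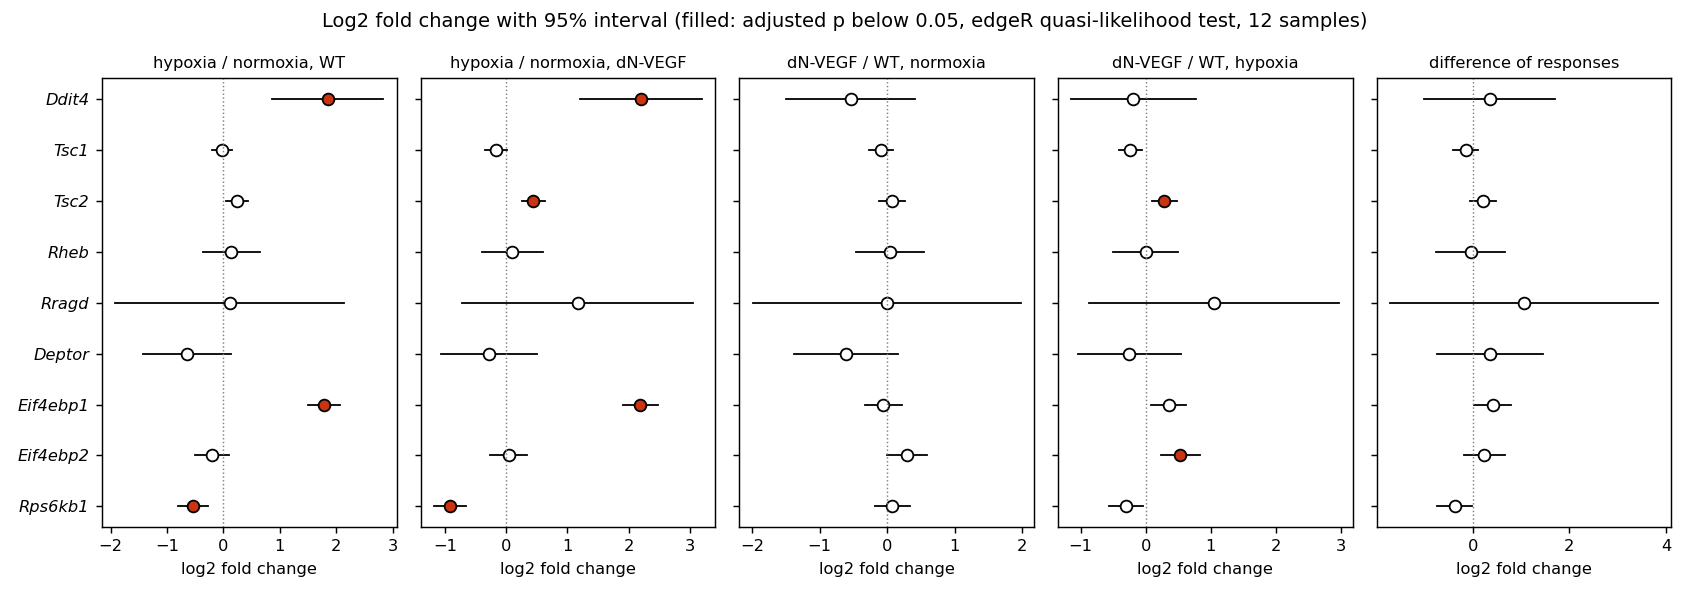
The 9 tested members are listed down each of 5 panels, 1 a comparison, with the log2 fold change on each horizontal axis (the scales differ between panels). Points are the fitted values from 12 samples, lines their 95% intervals, and filled points have an adjusted p below 0.05. Ddit4, Eif4ebp1 and Rps6kb1 were called in both hypoxia comparisons, Tsc2 in dN-VEGF cells after hypoxia, and Tsc2 and Eif4ebp2 between the lines in hypoxia.

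The lines were then compared within each condition, which asks whether cells without N-VEGF differ in these genes. In normoxia 0 of 9 members were called, and at an unadjusted p below 0.05 the edgeR test also gave 0 of 9, as DESeq2 did at its adjusted threshold. Of all tested genes 1.39% were called higher, 2.97% lower and 2.17% with at least 2-fold. The share of all genes at the unadjusted threshold was not counted. Ddit4 in dN-VEGF normoxia (31.4 to 75.8 CPM) overlapped the wild type (28.8 to 116 CPM), and its log2 fold change was -0.54 (95% interval -1.504 to 0.42). Between samples of the same number, the level of Ddit4 in dN-VEGF cells was 0.671, 1.09 and 0.602 of the wild-type level for replicates 1, 2 and 3. For Deptor these ratios were 0.633, 0.95 and 0.573, with a log2 fold change of -0.61 (95% interval -1.38 to 0.16), and for Eif4ebp2 they were 1.33, 1.02 and 1.41, with 0.29 (95% interval -0.01 to 0.59). In all 3 genes replicate 2 had the ratio nearest to 1.

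Without replicate 2 of normoxia in both lines, 3 of 9 members differed in normoxia. Ddit4 had a log2 fold change of -0.64 with an adjusted p of 1.31e-07, Deptor of -0.72 with 9.27e-05 and Eif4ebp2 of 0.46 with 5.42e-06 (edgeR). This fit called 53.6% of all tested genes between the lines in normoxia, 65.3% after hypoxia in wild-type and 71.4% in dN-VEGF cells, 55.8% between the lines in hypoxia and 52.8% for the difference of the responses, so the members' counts without these samples stand against far larger shares. The 4 samples left in normoxia are 2 a line.

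In hypoxia 2 of 9 members were called between the lines, both higher in dN-VEGF cells, where 10.8% of all genes were called higher, 9.36% lower and 6.81% with at least 2-fold. Eif4ebp2 was higher in all 3 dN-VEGF hypoxia samples (184 to 193 CPM) than in the wild-type hypoxia samples (125 to 139.5 CPM), with a log2 fold change of 0.53 ± 0.136 (SE) and an adjusted p of 0.0202 (edgeR). Tsc2 was also higher in all 3 (153 to 162 CPM against 119.6 to 143 CPM), with 0.28 ± 0.0883 (SE) and an adjusted p of 0.0441 (edgeR). The call of Tsc2 ended without the filter on low counts (adjusted p 0.209) and with total counts (log2 fold change 0.06, adjusted p 0.608, edgeR). Total counts called 1 member higher and 2 lower in this comparison, where 4.57% of all genes were called higher and 22.2% lower, and leaving out wild-type hypoxia replicate 1 or 3 or any 1 dN-VEGF hypoxia sample left 0 members called, where these fits called 5.44% to 6.07% of all genes higher and 4.49% to 4.82% lower.

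For another 4 members the lines did not overlap in hypoxia, but none of the 4 was called. Of 83 other pathway genes, described below, 52 did not overlap either, and the share over all genes was not counted. Eif4ebp1 was higher in dN-VEGF cells, with a log2 fold change of 0.35 (adjusted p 0.0686). Tsc1 and Rps6kb1 were lower, with -0.24 (0.061) and -0.30 (0.101), and Ddit4 was lower with -0.19 (0.804, edgeR). Without both normoxia samples numbered 2 all 4 were called, with adjusted p of 0.000101 for Eif4ebp1, 0.0018 for Tsc1, 0.00183 for Rps6kb1 and 0.00478 for Ddit4 (edgeR), in a fit that called 55.8% of all genes. The wide interval of Ddit4, from -1.15 to 0.77, stands beside narrow groups of samples in hypoxia (295 to 330.2 CPM in wild-type and 266 to 282 CPM in dN-VEGF cells). In a fit to the 6 hypoxia samples alone the difference of Ddit4 was -0.20 with an adjusted p of 0.00752, and 6 of 9 members were called, where that fit called 27.9% of all genes higher and 29.1% lower. The 12-sample fit shares 1 spread per gene over all 4 groups, and for Ddit4 that includes the normoxia samples numbered 2. Rheb, Deptor and Rragd overlapped between the lines in hypoxia, with 95% intervals of -0.51 to 0.50, -1.04 to 0.54 and -0.87 to 2.97.

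The difference between the hypoxia responses of the lines was tested directly as an interaction. For the members 0 of 9 were called by edgeR. Of all genes it called 2.21% as a larger log2 change in dN-VEGF cells, 1.15% as a smaller one and 1.56% with at least 2-fold. DESeq2 also called 0 members, where it called 6.99% and 3.33% of all genes. At an unadjusted p below 0.05 edgeR gave 2 of 9, and the share of all genes at that threshold was not counted. The 2 were Eif4ebp1, whose log2 response was 0.41 higher in dN-VEGF cells (p 0.0394, adjusted p 0.212, edgeR), and Rps6kb1, whose response was -0.38 relative to wild type (p 0.0473, adjusted p 0.23, edgeR). The response of Ddit4 differed by 0.35 with a 95% interval from -1.002 to 1.71, which holds both an equal response and one that differed by 2-fold. For Tsc2, called after hypoxia in dN-VEGF cells and in 6 of 20 alternatives in wild-type cells, the difference was not called either (0.21, 95% interval -0.07 to 0.48). Without replicate 2 of normoxia in both lines 4 members were called: Ddit4 (0.45), Deptor (0.47), Eif4ebp1 (0.31) and Rps6kb1 (-0.44).

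**Figure D3:**
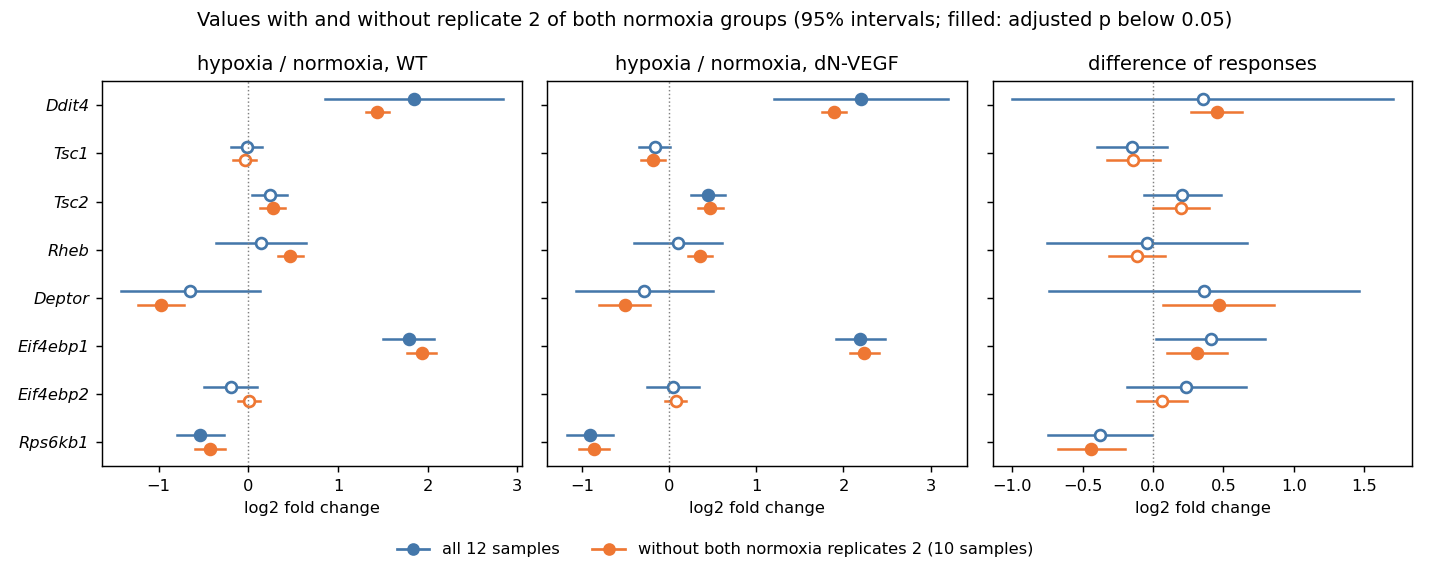
Log2 fold changes (horizontal axis) of 8 members after hypoxia in each line and for the difference of the responses, from all 12 samples and from the 10 samples left without replicate 2 of both normoxia groups. Rragd is left out for its low counts, lines are 95% intervals, and filled points have an adjusted p below 0.05. The interval of Ddit4 narrowed from 0.86 to 2.83 to 1.31 to 1.57 in wild-type cells, and Rheb moved from 0.14 to 0.47.

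The wider pathway was described by a list of 87 further genes, of which 86 were found and 83 tested. In wild-type cells 12 of these rose and 20 fell after hypoxia, where 18.2% of all genes rose and 18.3% fell. The median log2 fold change was -0.03 beside -0.07 over all genes. In dN-VEGF cells 26 rose and 27 fell, where 26.9% of all genes rose and 26.4% fell, with a median of -0.04 beside -0.01. With total counts the splits were 7 up and 38 down, and 12 up and 42 down, where 12.8% of all genes were called higher and 32.7% lower in wild-type cells and 15.3% and 44.5% in dN-VEGF cells. Of the 11 subunits and partners of the TOR complexes 0 rose in either line, while 4 fell in wild-type and 7 in dN-VEGF cells, where 18.3% and 26.4% of all tested genes fell. The group as a whole was not tested. Mtor, the kinase itself, went from 72.5 to 80.3 CPM in wild-type normoxia to 37.8 to 42.2 CPM in hypoxia, and the log2 difference came to -0.94 there and to -1.10 in dN-VEGF cells (adjusted p 6.19e-06 and 1.1e-06, edgeR). Rptor, the scaffold that defines mTORC1, fell by 0.84 and by 0.73 (adjusted p 1.75e-05 and 2.65e-05, edgeR).

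Among the genes upstream, the largest called rise in both lines was that of Prkab2, a regulatory subunit of the energy sensor AMPK, from 11.4 to 12.1 CPM in wild-type normoxia to 87.3 to 96.3 CPM in hypoxia. Its log2 fold changes were 2.98 and 3.27 (adjusted p 1.74e-09 and 6.36e-10, edgeR), and Prkaa2, a catalytic AMPK subunit, had no count in any sample. Nprl3, a subunit of the GATOR1 complex that restrains the RAG GTPases, fell by 1.94 in wild-type and by 2.38 in dN-VEGF cells (adjusted p 7.89e-07 and 1.12e-07, edgeR). Of the 6 amino acid sensor genes, Castor2, a relative of the arginine sensor, fell by 1.92 and by 1.90 in the wild-type and dN-VEGF lines (adjusted p 0.00135 and 0.000947, edgeR). Castor1 had log2 fold changes of 0.28 and 0.01, which were not called, and the second was -0.26 without both normoxia samples numbered 2 (adjusted p 0.0753, edgeR).

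Sesn2, a leucine sensor and stress protein that restrains mTORC1, rose from 34.5 to 47.8 CPM to 131.5 to 148 CPM in wild-type cells and from 33.1 to 36.2 CPM to 261.5 to 276 CPM in dN-VEGF cells. The hypoxia samples of dN-VEGF cells lay above all others. Its log2 fold changes were 1.70 and 2.97 (adjusted p 1.66e-06 and 2.4e-08), and the response was larger in dN-VEGF cells by 1.27 ± 0.166 (SE) with an adjusted p of 0.0048 (edgeR). Eef2k, the kinase that slows translation elongation and is held back by the mTORC1 pathway, rose by 1.75 and 2.35 on the log2 scale, with a difference of 0.60 ± 0.127 (SE) and an adjusted p of 0.0318 (edgeR). These were the 2 of 83 pathway genes called for a difference of the responses, where 2.21% of all genes were called as a larger and 1.15% as a smaller log2 change in dN-VEGF cells. DESeq2 called 12 of the 83 at its adjusted threshold, where it called 6.99% and 3.33% of all genes. By edgeR 18 of the 83 had an unadjusted p below 0.05, and the share of all genes at that threshold was not counted.

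Other partners of the members moved less or in 1 line. Tbc1d7, the third TSC subunit, had log2 fold changes of 0.13 and -0.22 after hypoxia and Rragc, the RAG GTPase related to Rragd, of -0.02 and -0.12, none of them called. Without both normoxia samples numbered 2, Tbc1d7 was called in dN-VEGF cells (-0.33) and Rragc in wild-type cells (0.17). Eif4e, the cap-binding protein that the 4E-BPs hold, fell by 0.82 in dN-VEGF cells (adjusted p 0.0451, edgeR), a call made in 11 of 20 alternatives and lost on leaving out any 1 dN-VEGF or wild-type hypoxia sample. In wild-type cells Eif4e measured 61.6, 164.5 and 66.6 CPM in normoxia and 67.8, 61.8 and 67.8 CPM in hypoxia. Its log2 fold change there of -0.57 (adjusted p 0.178) rested on replicate 2, and was 0.04 without both normoxia samples numbered 2 (adjusted p 0.563, edgeR). Rps6kb2, the relative of Rps6kb1, fell by 0.30 and by 0.41 (adjusted p 0.0303 and 0.00404, edgeR). Eif4ebp3, the remaining 4E-BP gene, had 0 to 13 counts per sample and was not tested.

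Between the lines, 4 of the 83 pathway genes were higher and 1 lower in dN-VEGF normoxia, and 16 were higher and 7 lower in hypoxia. Over all genes 1.39% were higher and 2.97% lower in normoxia, and 10.8% and 9.36% in hypoxia. In normoxia the higher genes included Prr5l, a partner of mTORC2, with 1.45 (adjusted p 0.0123), and Flcn, which acts on RRAGC and RRAGD, with 0.54 (adjusted p 0.0365, edgeR). These counts moved with the samples in the fit. The 12-sample fit with the replicate number as a block called 5 of the 83, where 1.55% of all genes were called higher and 2.82% lower. Fits to the 6 normoxia samples called 0 with and without the block. The one without the block called 0.0502% of all genes higher and 0.0574% lower. Leaving out the normoxia samples numbered 2 called 52, in a fit that called 53.6% of all genes. The blocked 6-sample fit, added with the data already seen, called 1 of 13934 genes in all. Prr5l was called in 17 of 21 alternatives and Flcn in 9 of 21. In hypoxia the largest were Sesn2 with 0.97, Nprl3 with -0.84 and Irs1, an adaptor of the insulin receptor, with -0.83 (adjusted p 0.00049, 0.00145 and 0.0029, edgeR).

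**Figure D4:**
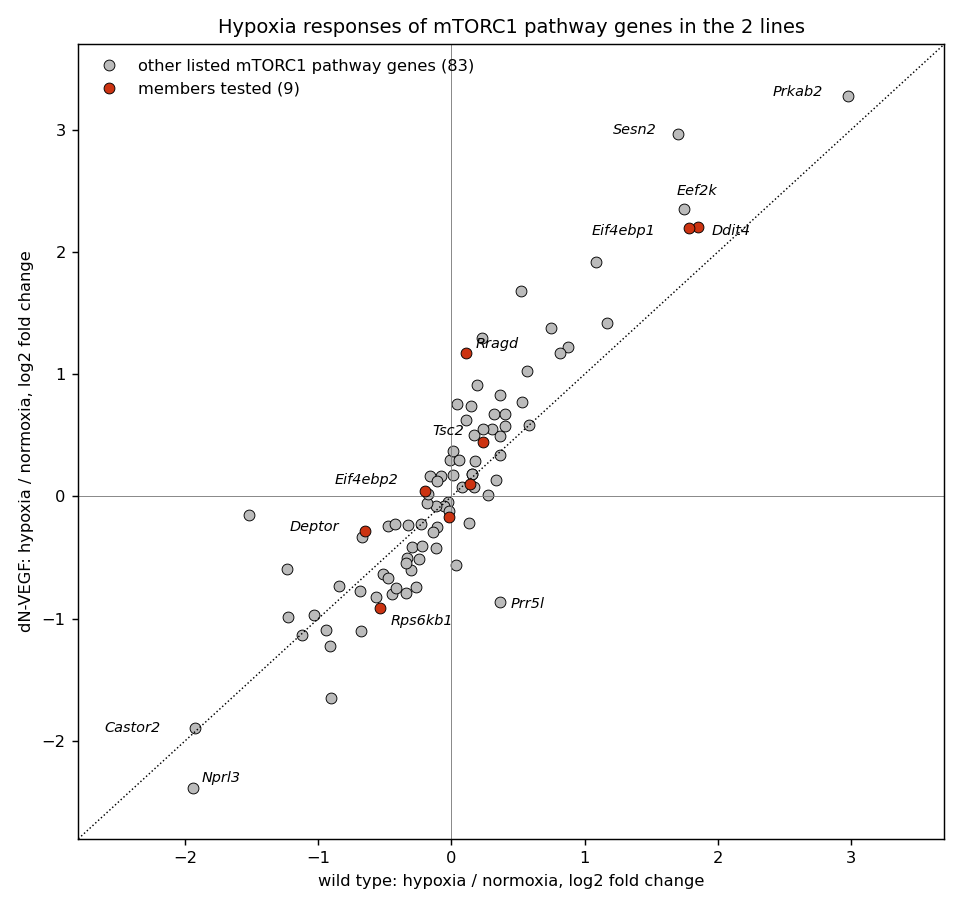
Each point is 1 gene, with its log2 fold change after hypoxia in wild-type cells on the horizontal and in dN-VEGF cells on the vertical axis, and the dotted line marks equal change. Red points are the 9 tested members and grey points the 83 other pathway genes. Ddit4 (1.85, 2.2) and Eif4ebp1 (1.79, 2.19) lay beside Eef2k (1.75, 2.35), below Sesn2 (1.70, 2.97) and Prkab2 (2.98, 3.27).

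Of 9 genes known as regulators of Ddit4, 8 were tested. In wild-type cells 2 rose and 1 fell after hypoxia, and in dN-VEGF cells 4 rose and 1 fell, where 18.2% and 26.9% of all genes rose and 18.3% and 26.4% fell in the respective lines. Only Atf4, Nr3c1 and Hif1a are described next, and no regulator called lower is among them. Atf4, a transcription factor of the amino acid and unfolded protein responses, rose by 0.99 and 1.54 on the log2 scale (adjusted p 4.64e-05 and 1.03e-06, edgeR), and Nr3c1, the glucocorticoid receptor, by 0.53 and 0.73. Hif1a, whose protein is mainly controlled by its stability, measured 256, 135 and 254 CPM in wild-type normoxia and 173, 138 and 172 CPM in hypoxia, with replicate 2 low in normoxia. Its log2 fold change was -0.42 (adjusted p 0.16), and -0.66 with 1.43e-07 without both normoxia samples numbered 2 (edgeR). In dN-VEGF cells Hif1a rose by 0.75 (adjusted p 0.0141, edgeR). Beside them, 10 of 10 listed hypoxia genes such as Vegfa, Car9 and Bnip3 rose in both lines.

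Over the 12 samples, the 5 genes whose log2 CPM was most like that of Ddit4 among 8522 genes were Cryz, Edem2, Smim14, Tor4a and Ccndbp1, with Pearson correlations of 0.99, 0.989, 0.986, 0.985 and 0.985. Edem2, which acts in the degradation of misfolded glycoproteins, measured 39.6 to 76.6 CPM in wild-type normoxia and 117 to 125 CPM in hypoxia, and 37.0 to 52.7 CPM and 109 to 119.9 CPM in dN-VEGF cells. Among the members, Rps6kb1 had a correlation of -0.903 with Ddit4 and Eif4ebp1 of 0.828, and Eif4ebp2 of -0.407. The points share their libraries and fall into hypoxia and normoxia samples, so these values describe the order of the groups as much as that of samples within them. Without the normoxia samples numbered 2 the value moved from -0.147 to 0.865 for Rheb, from 0.0558 to -0.619 for Deptor and from 0.677 to -0.0327 for Rragd. In these bulk samples, fewer cells that express a gene and less RNA of it per cell cannot be told apart.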

How the data were processed

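The authors sequenced single reads of 80 bases from TruSeq v2 libraries, trimmed them with Trim Galore, aligned them to GRCm38.p6 with TopHat2 2.1.0 and Bowtie2 2.2.6, counted them per gene of Ensembl release 94 with HTSeq 0.6.1, with a strand setting not given in the sources used here, and deposited raw counts of 54446 genes in 12 samples. These counts were analysed as deposited in R 4.3.3, where edgeR 4.0.16 gave TMM scaling, the filterByExpr filter, 1 mean for each of the 4 groups and the quasi-likelihood F test, with Benjamini-Hochberg adjustment over 14724 genes. A gene was called at an adjusted p below 0.05, and 95% intervals come from the same fit. Intervals and limits cover these samples and counting error only. Scripts were tested on simulated data.

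All members, 12 fixed pathway genes and, per comparison, the 3 called pathway genes with the largest change and no overlap between samples are named, except 1 that is not reported here, as are the 5 genes most like Ddit4 by Pearson correlation (log2 CPM with a prior count of 2, mean of at least 10 CPM). The members and lists were chosen with earlier results of these data known. Lengths are the union of exons in the annotation.

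Same-numbered samples were checked for pairing. The labels state none, but in normoxia same-numbered samples of the lines deviated together (correlations 0.355 to 0.498). Samples numbered 1 and 3 of the lines correlated about as much (0.347 and 0.358), and pairs of replicate 2 with another number were negative. Deviations were taken from the mean of 3 samples, so with replicate 2 standing apart, replicates 1 and 3 deviate the other way. These correlations therefore cannot decide whether samples were paired by number. In normoxia the blocked fit called 0 members, as did the fit without the block. Same-numbered samples in the other comparisons correlated at -0.0176 to 0.109. Alternatives were DESeq2 1.42.0, other scalings and filters, samples left out, fewer samples in the fit and a replicate block.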

Additional observations from a re-analysis of the deposited data

Results flagged for a closer look

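Sesn2 and Eef2k stood out among the listed pathway genes because the test of the difference itself was passed: their hypoxia responses differed between the lines. The response of Sesn2 was larger in dN-VEGF cells by 1.27 on the log2 scale (adjusted p 0.0048, edgeR), and was called in 19 of 19 alternatives, at 1.11 to 1.38 with adjusted p from 2.17e-10 to 0.0268. That of Eef2k was larger by 0.60 (adjusted p 0.0318, edgeR) and was called in 7 of 19 alternatives, at 0.43 to 0.67 with adjusted p from 1.63e-06 to 0.166. For Sesn2 the samples of dN-VEGF hypoxia (261.5 to 276 CPM) lay above those of wild-type hypoxia (131.5 to 148 CPM), and for Eef2k 237 to 249 CPM stood against 167 to 179.5 CPM. Over all genes 2.21% were called as a larger and 1.15% as a smaller response, and 2 of 83 lies near these shares. The groups of 3 samples are too small for a test of single samples that lie far from the others.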

How the results depend on the processing

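Ddit4, Eif4ebp1 and Rps6kb1 were called after hypoxia in 20 of 20 alternatives in both lines, and Tsc2 in dN-VEGF cells in 19 of 20. Between the lines in hypoxia, Eif4ebp2 was called in 15 of 20 and Tsc2 in 10 of 20. Where values moved, the cause was not tested unless the setting itself removes samples or genes. Without both normoxia samples numbered 2, the members called numbered 6 and 7 after hypoxia in wild-type and dN-VEGF cells, 3 and 6 between the lines in normoxia and hypoxia and 4 for the difference of the responses, and of the 83 pathway genes 55 after hypoxia in wild-type cells, 52 and 56 between the lines and 55 for the difference. Fits to the samples of the comparison alone called 6 members and 53 pathway genes between the lines in hypoxia (27.9% of all genes higher and 29.1% lower). They called 0 pathway genes in normoxia (0.0502% and 0.0574% of all genes) and 20 after hypoxia in wild-type cells (12.8% and 11.1%). After hypoxia in dN-VEGF cells they called 3 members higher and 2 lower, and 27 pathway genes higher and 33 lower (31.9% and 35.7%). Such fits could not be made for the difference of the responses. DESeq2 called 4 members between the lines in hypoxia (11.5% of all genes higher and 9.41% lower), and 11 pathway genes in normoxia (2.69% and 5.47%) and 12 for the difference (6.99% and 3.33%). Without the filter, 1 member and 15 pathway genes were called between the lines in hypoxia (3.98% and 3.89% of 30324 genes) and 1 pathway gene for the difference (0.762% and 0.712%). A threshold of 2-fold left 2 members after hypoxia in dN-VEGF cells (27.2% of all genes) and 0 between the lines in hypoxia (6.81%). Total counts called 1 member for the difference, where 0.998% of all genes were called higher and 5.13% lower. The replicate block called 4 members between the lines in hypoxia (11.6% and 10.4% of all genes), and, in a fit to the 6 samples of normoxia that was added with the data already seen, 0 pathway genes (1 of 13934 genes in all). Outside normoxia the samples share only a number, and in normoxia the correlations between samples cannot decide on pairing, since replicate 2 stood apart in both lines.

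Directions turned only for members not called with all samples and TMM, and of the turned values in this paragraph that of Eif4ebp2 with total counts was called (adjusted p 0.00566, edgeR). With total counts, which shift the median of all genes to -0.296 and -0.411 after hypoxia, Rheb was at -0.055 in wild-type and -0.29 in dN-VEGF cells, Rragd at -0.14 in wild-type and Eif4ebp2 at -0.36 in dN-VEGF cells. Without both normoxia samples numbered 2, Rragd was at -0.38 and Eif4ebp2 at 0.0092 after hypoxia in wild-type cells, and between the lines in normoxia Rragd was at 0.084 and Eif4ebp1 at 0.040. Without the filter, Eif4ebp2 was at -0.055 after hypoxia in dN-VEGF cells, and Rragd at 0.075 and Eif4ebp1 at 0.020 in normoxia. Rheb between the lines in hypoxia was at 0.0092 with DESeq2 and 0.012 with RLE size factors.

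Leaving out 1 sample at a time gave 3 to 6 members after hypoxia in wild-type and 4 to 5 in dN-VEGF cells, 0 to 3 between the lines in normoxia, 0 to 5 in hypoxia and 0 to 1 for the difference. The pathway counts were 22 to 47, 46 to 63, 1 to 50, 13 to 39 and 1 to 42. The lowest after hypoxia in wild-type cells came where 14.6% of all genes were called higher and 12.3% lower. In dN-VEGF cells these shares were 22.9% and 22.5%. Between the lines the lowest came with 0.376% to 0.434% higher and 0.726% to 0.737% lower in normoxia, and 5.44% and 4.64% in hypoxia. For the difference these shares were at most 0.781% and 0.468%. The highest member and pathway counts in every comparison came without wild-type normoxia replicate 2. That fit called 27.1% of all genes higher and 26.9% lower after hypoxia in wild-type cells, and 32.8% and 34.3% in dN-VEGF cells. It called 25.7% and 23.2% between the lines in normoxia, 21.2% in each direction in hypoxia and 21.4% and 23.0% for the difference. The 0 members in hypoxia came without wild-type hypoxia replicate 1 or 3 or any 1 dN-VEGF hypoxia sample. These fits called 5.44% to 6.07% of all genes higher and 4.49% to 4.82% lower. Log2 fold changes that changed sign ran, after hypoxia in wild-type cells, from -0.0065 to 0.47 (Rheb), -0.38 to 0.69 (Rragd) and -0.31 to 0.0097 (Eif4ebp2), and for Rheb from -0.034 to 0.35 in dN-VEGF cells. In normoxia they ran from -0.21 to 0.37 (Rheb), -0.57 to 0.57 (Rragd) and -0.13 to 0.094 (Eif4ebp1). For Rheb they ran from -0.056 to 0.041 in hypoxia and from -0.37 to 0.21 for the difference. A count of 0 to 25 for Rragd limits what this depth can show.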
